A study of Mus musculus with 6 samples.

Results

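The heme synthesis pathway was followed through 8 genes: the mitochondrial carrier Slc25a38 and the enzymes Alas1, Alad, Uros, Urod, Cpox, Ppox and Fech. They were chosen as members of a pathway, with earlier results of these data known, and each was represented by the probe set annotated to that gene alone with the highest mean level. All 8 were found, each with 1 such probe set, among 22180 genes with a probe set of their own and 41345 probe sets in all. Total RNA came from the ventral midbrain, where the dopamine neurons of the midbrain lie, of male mice 2 months old. There were 3 Bach1 knockout (Bach1 KO) and 3 age-matched wild-type (WT) samples, 1 Affymetrix array each and with no treatment in either group. The strain, the structure of the knockout allele and whether a sample was a single animal or a pool are not stated in the labels. A p-value here therefore weighs a difference against the scatter among these samples, which may be technical.

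Heme, the iron porphyrin of cytochromes, catalases and many other proteins, is made in every nucleated cell, and the pathway starts and ends in mitochondria. Glycine, which SLC25A38 is thought to carry into the mitochondrion, is joined to succinyl-CoA by ALAS1, the rate-limiting enzyme outside the red cell lineage. The product is turned into porphyrin rings in the cytosol and returns to the mitochondrion, where FECH inserts iron. Heme restrains its own synthesis through ALAS1. It also binds BACH1, a transcriptional repressor of genes such as Hmox1, and releases it from DNA. The comparison addressed which transcripts differ in this brain region when Bach1 is knocked out, and here whether those of heme synthesis do.

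Levels were log2 values after RMA, so a difference of 1 is a doubling, and differences are given as knockout-labelled minus wild type. Array medians ran from 5.58 to 5.69, and Pearson correlations between arrays, across probe sets, from 0.984 to 0.989. Precision is limited by the 3 arrays a group. The Bach1 probe set, which checks the labels, was at 7.66 ± 0.058 on the knockout-labelled and 7.54 ± 0.068 (SD, n = 3 each) on the wild-type arrays. It was therefore not lower under the knockout label (limma, adjusted p = 0.74), and a probe set outside a deleted part of the gene checks nothing. Directions follow the labels, and the arrays are called knockout-labelled throughout. Hmox1, which encodes the inducible enzyme of heme breakdown, was at 8.50, 8.22 and 8.41 on the knockout-labelled and at 6.51, 6.46 and 6.32 on the wild-type arrays. That log2 difference of 1.95 passed the test (limma, adjusted p = 0.0181). With any 1 of the 6 arrays omitted it was 1.88 to 2.03, and the adjusted p of 0.134 to 0.233 no longer passed in any of these fits (limma). All 16 dopaminergic neuron markers examined, Th and Slc6a3 among them, had means over 5.07, the 40th percentile of all probe sets. Of 11 hypothalamus and pituitary markers only 2 were not over it, so this level does not tell the regions apart.

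Short stretches of promoter are shown because they hold the matches found to binding motifs of regulators tied to this pathway or to BACH1. RefSeq promoter windows (GRCm38.p6), each running from 250 bases before to 50 after a transcription start, were at hand for 7 of the 8 genes, in 10 windows. Fech was not among them. The NRF1 palindrome is bound by nuclear respiratory factor 1, an activator of many genes for mitochondrial proteins. It was found for 2 of the 7 genes, Alas1 and Uros, against 5.19% of all 27025 genes with a window. Over windows it was 3 of 10 against 4.6% of all 32851, but the windows of Alas1 overlap and hold the same pair of sites. The antioxidant response element core, TGACNNNGC, which NRF2 and BACH1 with small Maf partners can bind, was found for Slc25a38 alone, in 1 of the 10 windows against 12.4% of all windows. Each line is written 5′ to 3′ on the gene's strand with the motif in capitals.
Alas1, first palindrome, chr9:106247935-106247964, minus strand: gcttcggcgcGCGCGTGCGCgcggcaggcc
Alas1, second palindrome, chr9:106247906-106247935, minus strand: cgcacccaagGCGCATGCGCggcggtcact
Uros, palindrome, chr7:133709323-133709352, minus strand: cggtcacactGCGCCTGCGCgagtcccgcc
Slc25a38, antioxidant response element core, chr9:120110317-120110345, plus strand: cgccggatacGCTATGTCAccggaagcgg

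The motifs of Alas1 lie 224 and 195 bases before the more downstream of its listed starts, and just after the more upstream one. In Uros the palindrome begins 47 bases before a listed start, and the other window of Uros holds no match. In Slc25a38 the core begins 55 bases before the start, on the opposite strand. A longer Maf recognition core (TGANTCAGC) and the AP-1 core (TGANTCA), which overlaps it, had 0 matches in the 10 windows, against 1.19% and 7.81% of all. So did the TATA box (TATAAA), found in 13.6% of all windows. Both strands were searched for every motif. The windows of these genes had a median GC content of 59.3% and a median of 18 CpG dinucleotides, against 52.7% and 7 over all windows. These matches describe letters in a window and are not evidence of binding.

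None of the 8 heme synthesis genes differed between the genotypes past the test. Limma called 0 of 8 at an adjusted p under 0.05, and 0 had an unadjusted p under 0.05. Over all probe sets 0.00726% were called, all higher, and 8.27% had an unadjusted p under 0.05. Means were lower on the knockout-labelled arrays for 6 genes and higher for 2, Cpox and Urod. The log2 differences ran from -0.11 for Uros to 0.094 for Cpox, with a median of -0.050. Every 95% interval included 0, and together the intervals reached from -0.35 to 0.32, which are ratios of 0.787 to 1.25 between the genotypes. The lower bound of the Hmox1 interval, 1.69, lay above the upper bound of each of them.

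**Figure D1:**
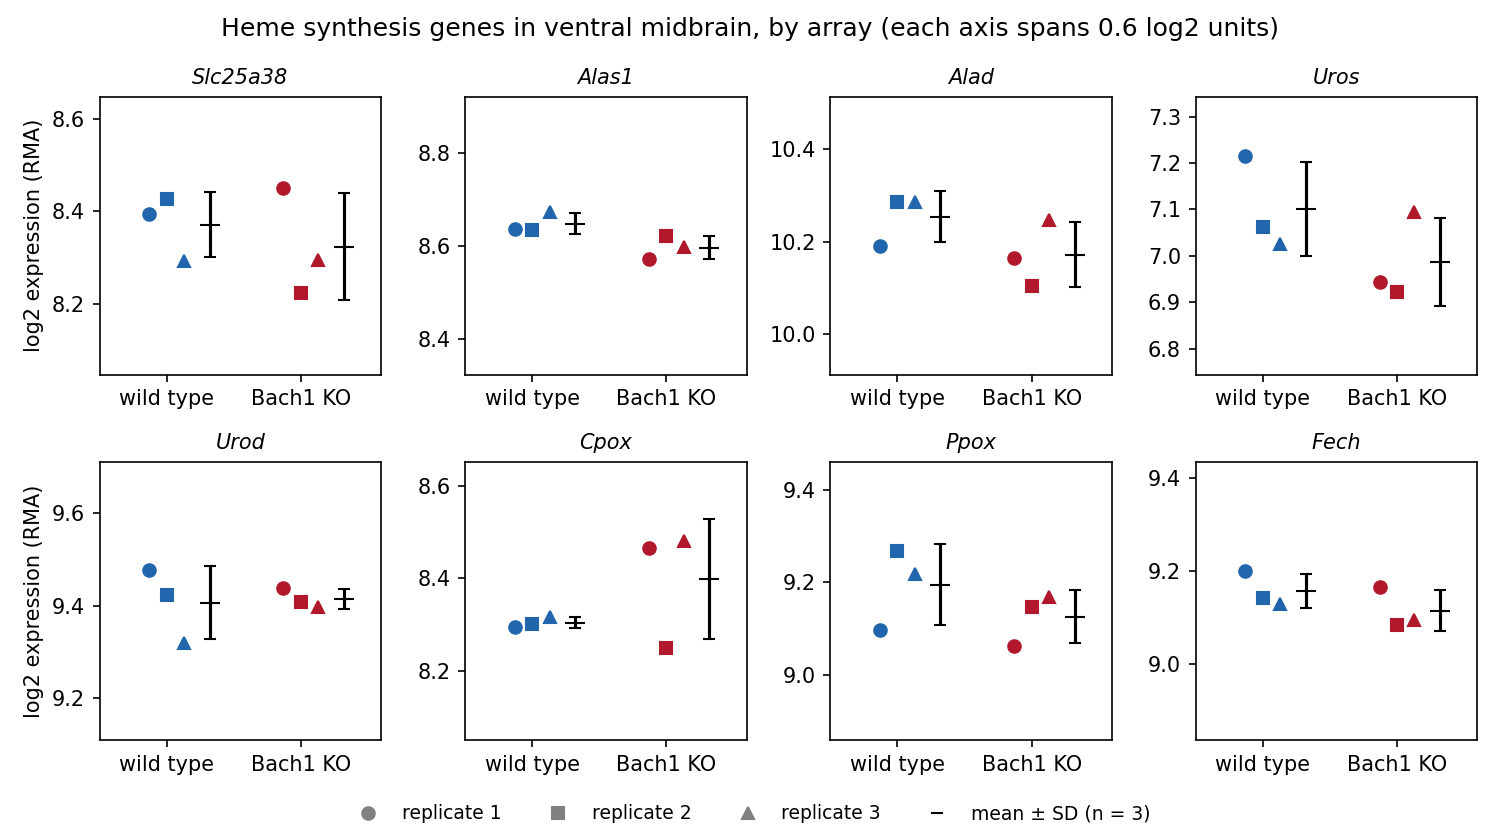
RMA log2 expression of the 8 heme synthesis genes in pathway order on each array, with wild type in blue, knockout-labelled in red, marker shapes for replicates 1 to 3 and black bars for mean ± SD (n = 3). Every axis spans 0.6 log2 units but starts at a different level, and the groups overlap in each panel but that of Alas1, where the gap is small.

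At the entry of the pathway, Slc25a38 was at 8.45, 8.23 and 8.30 on knockout-labelled replicates 1, 2 and 3 and at 8.40, 8.43 and 8.29 on wild-type replicates 1, 2 and 3. Its highest and its lowest value both came from knockout-labelled arrays, so the groups overlapped fully. The means of 8.32 ± 0.12 and 8.37 ± 0.070 (SD, n = 3) gave a log2 difference of -0.048 with a 95% interval of -0.28 to 0.18 (limma, adjusted p = 0.916). Without knockout-labelled replicate 2 the difference was 0.0017, so its direction rested on that array.

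Alas1, the rate-limiting enzyme, was the member whose groups did not overlap. It was at 8.57, 8.62 and 8.60 on the knockout-labelled and at 8.64, 8.63 and 8.67 on the wild-type arrays. All 3 knockout-labelled values thus lay below all 3 wild-type values, by a narrow margin. Means of 8.60 ± 0.025 and 8.65 ± 0.022 (SD, n = 3) gave a log2 difference of -0.052, a ratio of 0.965 with a 95% interval of 0.855 to 1.09 (limma, adjusted p = 0.875). Groups did not overlap, with knockout-labelled values lower, for 1 of the 8 genes and for 6.86% of all probe sets. With knockout-labelled values higher it was 0 of the 8 and 7.4% of all probe sets, and in either direction 1 of the 8 and 14.3%. The lower mean of Alas1 held under each of the 14 alternatives run, but most of them could not have turned it. Changes of variance model, annotation, dim probe sets, probe set choice or block leave the difference as it is. Omitting an array cannot reverse groups that do not overlap. Changes of scaling could, and gave -0.017 after renewed quantile normalization and -0.099 with arrays centred on their medians.

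The genes of the cytosolic steps differed by less than the spread between replicates allows to be called. ALAD joins the products of ALAS1 in pairs into a pyrrole. Its gene was at 10.16, 10.11 and 10.25 on the knockout-labelled and at 10.19, 10.29 and 10.29 on the wild-type arrays. The highest knockout-labelled value exceeded the lowest wild-type value, and the log2 difference was -0.082 (95% interval -0.28 to 0.12; limma, adjusted p = 0.813).

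Uroporphyrinogen III synthase, the product of Uros, closes the ring with the turned pyrrole of natural porphyrins. Uros had the most negative difference of the 8. It was at 6.94, 6.92 and 7.10 on the knockout-labelled and at 7.22, 7.06 and 7.03 on the wild-type arrays. Knockout-labelled replicates 1 and 2 lay below every wild-type array, while replicate 3 lay above wild-type replicates 2 and 3. The difference was -0.11, a ratio of 0.924 with a 95% interval of 0.787 to 1.08 (limma, adjusted p = 0.773). Uros also varied most over the 6 arrays, with a range of 0.29, and its difference was -0.17 without knockout-labelled replicate 3 and -0.057 without wild-type replicate 1.

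Urod encodes the decarboxylase that acts last in the cytosol. It was at 9.44, 9.41 and 9.40 on the knockout-labelled and at 9.48, 9.42 and 9.32 on the wild-type arrays. The wild-type values enclosed the knockout-labelled ones on both sides. Its log2 difference of 0.0079 was the smallest of the 8 (95% interval -0.19 to 0.20; limma, adjusted p = 0.986). The sign turned to -0.039 when arrays were centred on their medians, to -0.0040 without knockout-labelled replicate 1 and to -0.035 without wild-type replicate 3.

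Back in the mitochondrion, Cpox and Ppox encode the oxidases that act in turn on coproporphyrinogen and protoporphyrinogen. Cpox was at 8.47, 8.25 and 8.48 on the knockout-labelled and at 8.29, 8.30 and 8.32 on the wild-type arrays. Knockout-labelled replicates 1 and 3 stood above a tight wild-type group and replicate 2 stood below it. The means of 8.40 ± 0.13 and 8.30 ± 0.012 (SD, n = 3) gave the most positive difference of the 8, 0.094 with a 95% interval of -0.13 to 0.32 (limma, adjusted p = 0.809). Without knockout-labelled replicate 2 it was 0.17, its highest value among the alternatives. It did not pass in that fit, which called 0 of all probe sets.

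Ppox was at 9.06, 9.15 and 9.17 on the knockout-labelled and at 9.10, 9.27 and 9.22 on the wild-type arrays. Replicate 1 was the lowest array within each group, and wild-type replicate 1 lay below knockout-labelled replicates 2 and 3. The log2 difference was -0.068 (95% interval -0.28 to 0.14; limma, adjusted p = 0.857).

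Fech encodes ferrochelatase, the iron-sulfur enzyme that inserts iron. It was at 9.16, 9.08 and 9.09 on the knockout-labelled and at 9.20, 9.14 and 9.13 on the wild-type arrays. Knockout-labelled replicate 1 lay among the wild-type values and the other two lay below them. The difference was -0.042, a ratio of 0.971 with a 95% interval of 0.856 to 1.10 (limma, adjusted p = 0.906). Levels of different genes come from different probes and are not ranked against each other.

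**Figure D2:**
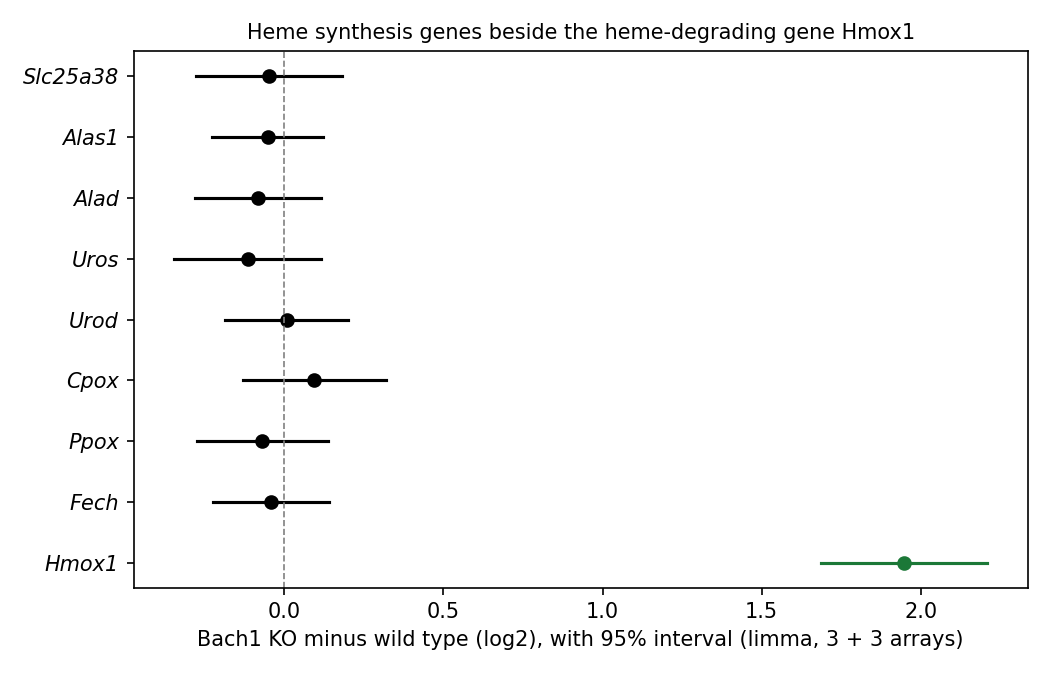
Log2 difference, knockout-labelled minus wild type, with its 95% interval (limma, 3 arrays a group) for the 8 heme synthesis genes in black and for Hmox1 in green. The 8 intervals include 0, while that of Hmox1 runs from 1.69 to 2.21.

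Means were higher on the knockout-labelled arrays for 2 of the 8 members, with a median difference of -0.050. Over all probe sets 50.1% were higher, with a median of 0.00050, and with 1 probe set for each of the 22180 genes 46.9% were higher, with a median of -0.0098. Among the 15790 genes above the 40th percentile of mean level, where all 8 members lie, 40.7% were higher, with a median of -0.024. When probe sets were cut by mean level into 10 bins of equal size, Slc25a38, Alas1, Cpox, Ppox and Fech fell in a bin with a mean of 8.63 and a median difference of -0.034. Alad and Urod fell in the brightest bin, with a median difference of -0.021, and Uros in one with a mean of 6.69 and a median difference of -0.030. The part of signal level in the members' values was not tested. The median size of a difference, sign aside, was 0.060 for the 8 genes and 0.079 for genes above the 40th percentile. The median within-group SD was 0.069 for the members, against 0.11 for those genes, which were not matched to the members for level.

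Knockout-labelled replicate 2 gave low values for the pathway. It was the lowest of the 6 arrays for 5 of the 8 genes, Slc25a38, Alad, Uros, Cpox and Fech. All 8 genes lay below their own 6-array mean on it, and the mean deviation over the 8 was -0.066. The other knockout-labelled arrays had mean deviations of -0.0030 and 0.011, and the wild-type arrays ran from -0.0028 to 0.032. Without this array, 5 members had a lower and 3 a higher mean, with a median of -0.038, and 0 were called (limma, 0 at an unadjusted p under 0.05). On the same array the mean deviation of 11 oligodendrocyte markers from the wild-type mean was -0.19, with -0.061 to 0.11 on the wild-type and 0.020 to 0.084 on the other knockout-labelled arrays. For 12 endothelial and mural markers it was -0.32, against -0.063 to 0.067 on the wild-type and -0.11 on both of the others. All 3 knockout-labelled arrays thus lay below the wild-type arrays for this list. Of its 12 markers 11 had a lower mean, with a median of -0.18, and limma called 0, with 1 at an unadjusted p under 0.05. Some related lists were low on knockout-labelled replicate 2 too, at -0.11 for iron-sulfur assembly (wild-type arrays -0.016 to 0.025) and -0.064 for heme traffic (-0.048 to 0.044). Enzymes of heme a and c were at -0.11 on it and at -0.075 on knockout-labelled replicate 1 (wild-type arrays -0.060 to 0.078). Other lists were not low on replicate 2, at 0.025 for porphyrin and iron carriers and 0.049 for control of Alas1. Supply of glycine and succinyl-CoA, at -0.018, lay within its wild-type range of -0.026 to 0.024. The low values were thus neither limited to heme synthesis nor shared by all related lists. Dopaminergic neuron markers, 13 of 16 with a higher mean on the knockout-labelled arrays, were at -0.094 on replicate 2, at 0.15 and 0.27 on replicates 1 and 3 and between -0.12 and 0.064 on the wild-type arrays. Hypothalamus and pituitary markers, from a neighbouring region, had the widest median shift of the lists examined, with 10 of 11 lower and a median of -0.65. Limma called 0 of them, with 3 at an unadjusted p under 0.05, against 8.27% of all probe sets. Knockout-labelled values lay below all wild-type values for 4 of the 11, against 6.86% of all probe sets. They lay above all wild-type values for 0 of the 11, against 7.4%. Mean deviations over the 11 markers were -0.41, -0.54 and -1.29 on the knockout-labelled and -0.44, -0.15 and 0.59 on the wild-type arrays, so that the groups overlapped in this mean. The part of any of these markers in the values of heme synthesis genes was not tested. In tissue RNA, fewer cells of a type and less RNA per cell cannot be told apart.

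**Figure D3:**
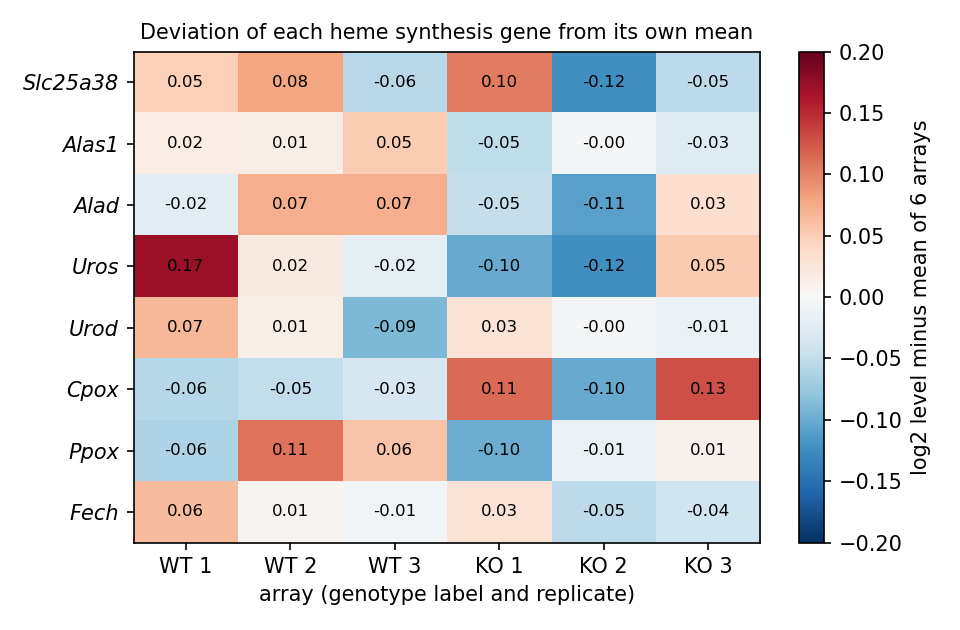
Deviation of each heme synthesis gene on each array from its own mean over the 6 arrays, in log2 units, with red above and blue below the mean. The column of knockout-labelled replicate 2 (KO 2) is below the mean for all 8 genes, while no other array is on 1 side for all of them.

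The 8 genes did not vary as a unit over the arrays. Described over the 6 arrays, which share the normalization and the genotype groups, Pearson's r between pairs ran from -0.71 for Alas1 with Cpox to 0.79 for Slc25a38 with Fech. Alas1 deviated least from its mean, with a range of 0.10. Among 22179 other genes, the 3 with the pattern most like Alas1 were Nos3, Tmem63b and Zfr2. Their deviations differed from those of Alas1 by a root mean square of 0.012, 0.012 and 0.013 over the 6 arrays, and 227 genes were closer to Alas1 than a flat line. Their own log2 differences were -0.054, -0.044 and -0.042, which lie near that of Alas1 because of how the genes were picked. None passed (limma, adjusted p = 0.869, 0.894 and 0.904).

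The erythroid isozyme Alas2 had no probe set of its own. A probe set that it shares with Apex2, so that the signal cannot be split between them, was at 6.01, 5.78 and 5.89 on the knockout-labelled and at 6.46, 6.51 and 5.98 on the wild-type arrays. Wild-type replicate 3 lay inside the knockout-labelled range, and the log2 difference of -0.42 did not pass (95% interval -0.82 to -0.032; limma, adjusted p = 0.582). Over 7 red cell markers with probe sets of their own, 4 of them below the 40th percentile, the mean deviation lay between 0.0088 and 0.055 on the knockout-labelled arrays. On the wild-type arrays it lay between -0.066 and 0.097, and its part in the Alas2 value was not tested.

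Genes that feed, regulate or use the pathway were read from lists of the same kind, and Hmox1 was the single gene called in them. Among 10 carriers of porphyrin, iron and glutathione and their partners, 7 had a lower and 3 a higher mean, with a median of -0.078. Limma called 0 of the 10, with 1 at an unadjusted p under 0.05, against 8.27% of all probe sets. Abcb10, a mitochondrial transporter that supports heme synthesis, was at 7.82, 7.61 and 7.89 on the knockout-labelled and at 7.90, 8.08 and 8.02 on the wild-type arrays. Its groups did not overlap, although the gap was very small, and the difference of -0.22 did not pass (limma, adjusted p = 0.632). Tspo2, an erythroid relative of the mitochondrial translocator protein, was at 4.94, 5.24 and 4.60 against 4.49, 4.40 and 4.40. That difference of 0.50 (limma, adjusted p = 0.557) was measured below the 40th percentile of mean level. Slc25a39, the mitochondrial glutathione carrier, was singled out after its values were seen as the remaining member without overlap, with a difference of -0.13. In all, 1 of the 10 was higher without overlap and 2 were lower, against 7.4% and 6.86% of all probe sets.

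The supply of glycine and succinyl-CoA showed 7 higher and 5 lower means among 12 genes, a median of 0.018 and 0 calls by limma, with 0 at an unadjusted p under 0.05. Its extremes were the neuronal glycine transporter gene Slc6a5 at 0.13 (95% interval -0.21 to 0.46) and Phgdh, the first enzyme of serine synthesis, at -0.25 (95% interval -0.57 to 0.068). Iron-sulfur cluster assembly, which provides the cluster of ferrochelatase, had 6 higher and 5 lower among 11, with a median of 0.00013 and 0 calls by limma, with 0 at an unadjusted p under 0.05. Isca1, an assembly factor, was at 0.12 and the co-chaperone gene Hscb at -0.19. Isca1 and Hspa9, the mitochondrial Hsp70, had knockout-labelled values above all wild-type values, the second being named after its values were seen. That is 2 of the 11, against 7.4% of all probe sets, and 0 were lower without overlap, against 6.86%.

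Regulators of Alas1 transcription and of ALAS1 turnover had 7 higher and 5 lower means among 12, with a median of 0.026, and limma called 0, with 0 at an unadjusted p under 0.05. Nrf1, whose palindrome is shown above for Alas1 and Uros, had a log2 difference of 0.073 (95% interval -0.11 to 0.26). Nr1d1, a heme-binding clock repressor of Alas1, had one of -0.10 (95% interval -0.33 to 0.12). Thus the extremes of this list stayed within 0.11 of 0.

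Among 11 genes of heme traffic, 4 had a higher and 7 a lower mean, with a median of -0.026. Limma called 0 of the 11, with 1 at an unadjusted p under 0.05, against 8.27% of all probe sets. Hpx, the heme-scavenging hemopexin, was at 5.39, 5.73 and 5.68 on the knockout-labelled and at 5.35, 5.12 and 5.26 on the wild-type arrays. Those values did not overlap, and the difference of 0.36 did not pass (limma, adjusted p = 0.566). Flvcr2, a membrane transporter related to the heme exporter Flvcr1, was at 6.25, 6.25 and 6.26 against 6.45, 6.39 and 6.37, also without overlap, at -0.15 (limma, adjusted p = 0.634). Of the 11 genes 1 was thus higher and 1 lower without overlap, against 7.4% and 6.86% of all probe sets. The 3 enzymes that make heme a or attach heme c all had slightly lower means, between -0.052 for Hccs and -0.020 for Cox15, and 0 were called by limma, with 0 at an unadjusted p under 0.05. In heme breakdown, Hmox2, the constitutive oxygenase, had a difference of -0.026, and Blvra and Blvrb, which reduce biliverdin, had -0.012 and 0.058, named after their values were seen.

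**Figure D4:**
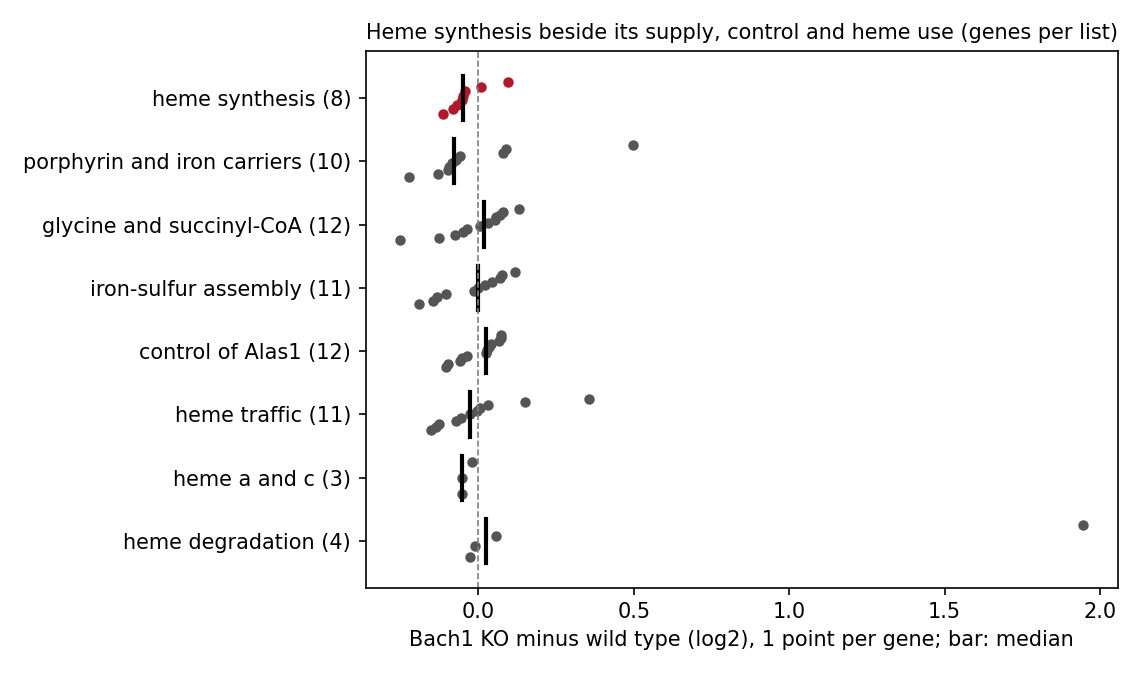
Log2 difference, knockout-labelled minus wild type, for each gene with a probe set of its own in heme synthesis (red) and 7 related lists (grey), with a black bar at each list's median and the number of genes in brackets. The heme synthesis genes lie between -0.11 and 0.094, and the point at 1.95 in heme degradation is Hmox1.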

How the data were processed

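Values as deposited are log2 levels, 1 per probe set and array, made by the authors with RMA according to the submitters' processing notes. The RMA version and its annotation are not stated there. The log2 scale was read from the values, which run from 0.745 to 14.1. RMA removes a change shared by most genes and compresses differences of dim probe sets. Depth does not apply to arrays, and 0 further columns of sample values were present.

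Samples were grouped by genotype label. Gene names came from the platform annotation, updated through Entrez identifiers to RefSeq (GRCm38.p6) for 23328 probe sets; 23521 had 1 gene, 1814 several and 16010 none. All 41345 probe sets were fitted with limma 3.58.1 (lmFit, eBayes) in R 4.3.3 on the 6 arrays without covariates, and p-values were adjusted with Benjamini-Hochberg over all of them. The fit was tested on simulated data. Members and lists were chosen with earlier results of these data known. Named genes were all members, the highest and lowest of each related list, called genes, Hmox1 and Bach1, and the 3 genes closest to Alas1. Alternatives covered variance model, scaling, dim probe sets, annotation, probe set choice, replicate block and omitted arrays. Same-numbered samples of the 2 genotypes did not deviate together (r = 0.086, -0.033 and 0.039), so numbers were not taken as pairs.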

Additional observations from a re-analysis of the deposited data

How the results depend on the processing

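Limma called 0 of the 8 heme synthesis genes under each of the 14 alternatives, and where it was counted 0 of 8 had an unadjusted p under 0.05. With the replicate block or any array omitted, 0 of all probe sets were called, so those fits could not set the 8 genes apart. Each member has 1 probe set of its own, so the choice of probe set could not change its difference. Their median difference was -0.013 after renewed quantile normalization and -0.097 with arrays centred on their medians, which moved the median of all probe sets to -0.047. The direction of Urod turned with centring (-0.039), without knockout-labelled replicate 1 (-0.0040) and without wild-type replicate 3 (-0.035), and that of Slc25a38 without knockout-labelled replicate 2 (0.0017). Leaving out single arrays, Urod ran from -0.035 to 0.043 and Slc25a38 from -0.11 to 0.0017. The other 6 members kept their direction, which for Alas1 only the changes of scaling could have turned. Over all probe sets limma called 3. It called 1 among those with 1 gene, where the other 2, which have no gene, were left out. With the replicate number as a block 0 were called, with 3352 at an unadjusted p under 0.05, and Hmox1 had an adjusted p of 0.544. Leaving out each array in turn gave 0 to 0, with 2469 to 4007 at an unadjusted p under 0.05. The cause of these changes was not tested.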
